A study of Mus musculus with 16 samples.

Results

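The genes of MHC class I antigen presentation described here are 10 of the 46078 genes in the deposited count table, chosen by symbol. They are H2-K1 and H2-D1, which encode the classical class I heavy chains, B2m, which encodes their light chain β2-microglobulin, Tap1 and Tap2, which together form the peptide transporter, and Tapbp, which encodes tapasin. Nlrc5, a transactivator of class I genes, and Psmb8, Psmb9 and Psmb10, the inducible catalytic subunits of the immunoproteasome, complete the set.

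Class I molecules carry peptides of proteins made inside a cell to its surface, where CD8+ T cells read them. The proteasome cuts the peptides, the transporter associated with antigen processing moves them into the endoplasmic reticulum, and tapasin holds the empty class I molecule next to the transporter until a peptide is bound. Interferons, interferon-γ above all, raise the whole set, and under interferon-γ the inducible subunits Psmb9, Psmb10 and Psmb8 take the places of the constitutive subunits Psmb6, Psmb7 and Psmb5 in newly built proteasomes. In the small intestine both the epithelium and the many intraepithelial T cells express class I.

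RNA of the ileum mucosa was sequenced in 16 mice of the C57Bl/6 strain background, 8 Slfn3KO mice, in which the Schlafen gene Slfn3 is knocked out, and 8 WT littermates, with 4 mice labelled female and 4 labelled male in each genotype. The sample labels give an age of 8 weeks, and the methods of the study give an older age. The labels name the tissue as intestinal mucosa, which the methods place in the ileum, and name no treatment. The 16 samples are separate mice, and nothing more is given on cages or days. Counts per mouse summed to between 20823279 and 30813117, and at that depth a floor of 3 counts, which covers counting error alone, stands for 0.0974 to 0.144 CPM, the count relative to the scaled library size.

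The targeted gene was below this floor in every Slfn3KO library and low in the WT libraries. Slfn3 had 0 CPM in 6 of the 8 Slfn3KO libraries and 0.0802 and 0.0361 CPM in female Slfn3KO 4 and male Slfn3KO 1, against 0 to 0.646 CPM in the WT libraries, with male WT 4 at 0. Sex transcripts and sex labels disagree in 4 WT libraries. Female WT 3 and 4 had 42.0 and 49.7 CPM of the Y-linked Ddx3y and at most 0.124 CPM of Xist, while male WT 3 and 4 had 437 and 401 CPM of Xist and at most 0.0416 CPM of Ddx3y. These are called the libraries labelled female or male throughout, and the comparisons were repeated without the WT libraries 3 and 4 of both labels. The ileal genes Fabp6, a bile acid binding protein, and Slc10a2, the ileal bile acid transporter, were present in all 16 libraries, at 1799 to 15725 CPM and 51.7 to 469 CPM. Their sum was lowest in female WT 1, at 1898 CPM. The 4 markers of the proximal small intestine summed to 101 to 1103 CPM in Slfn3KO, highest in male Slfn3KO 4, and to 30.5 to 1561 CPM in WT, lowest in female WT 3 and highest in female WT 1, with none at 0.

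Of the 10 genes 7 lie on mouse chromosome 17 (mm10), within the major histocompatibility complex. Tapbp lies at chr17:33915899-33929288, H2-K1 at chr17:33996017-34000333, Psmb9 at chr17:34181988-34187764, Tap1 at chr17:34187553-34197225, Psmb8 at chr17:34197721-34201454, Tap2 at chr17:34203527-34216321 and H2-D1 at chr17:35262730-35267499. H2-K1 and Psmb9 are on the minus strand and the other 5 on the plus strand. B2m is at chr2:122147686-122153083, Nlrc5 at chr8:94472763-94527272 and Psmb10 on the minus strand at chr8:105935728-105938392. Psmb9 and Tap1 are transcribed away from each other, with 225 bases between their RefSeq starts, and their gene models overlap in the count table.

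RefSeq promoters of build GRCm38.p6, 250 bases before to 50 bases after a start, were at hand for 8 of the 10 genes, Nlrc5 and Tap2 having no entry. They are shown because H2-K1, H2-D1 and B2m hold the same pair of short patterns at the same spacing before their RefSeq starts. The stretches below run 5′ to 3′ on the strand of the gene, and capitals mark a match to GGGA followed after 4 bases by CC, a pattern of NF-κB sites, and then TGACG, the core of a CREB site, followed after 20 bases by ATTGG, an inverted CCAAT box.
H2-K1, chr17:34000359-34000458, minus strand: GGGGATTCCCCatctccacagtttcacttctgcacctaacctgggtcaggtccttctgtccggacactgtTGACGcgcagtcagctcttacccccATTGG
B2m, chr2:122147560-122147638, plus strand: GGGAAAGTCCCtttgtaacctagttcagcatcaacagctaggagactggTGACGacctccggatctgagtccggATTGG

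The pair TGACG and ATTGG alone is set out for the 4 listed genes that hold it at 20 bases, with the spacer in lower case.
H2-K1, chr17:34000359-34000388, minus strand: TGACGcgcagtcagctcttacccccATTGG
H2-D1, chr17:35262993-35263022, plus strand: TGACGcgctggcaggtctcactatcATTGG
B2m, chr2:122147609-122147638, plus strand: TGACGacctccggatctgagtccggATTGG
H2-M3, chr17:37270188-37270217, plus strand: TGACGcttctccaattcccattctaATTGG

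Letters of this kind belong to the module of class I and class II promoters through which RFX, CREB and NF-Y proteins are known to act. At class I promoters NLRC5 acts with them. The spacing was read from H2-K1, H2-D1 and B2m, so that their match is a description. Searched on both strands, the pair at this spacing was in 31 of 32851 promoters (0.0944%), those of 27 genes, and among the genes listed for this work it was found in H2-K1, H2-D1, B2m and the non-classical class I gene H2-M3. TGACG alone was in 20.8% of promoters, CCAAT in 37.4% and the NF-κB-like pattern in 20.7%. Between H2-K1 and H2-D1, 23 of the 30 bases of the pair and its spacer were identical, and 89 of the 100 bases from the NF-κB-like match to ATTGG. H2-K1 and B2m shared 13 of the 30 bases, 10 of which are the pair itself. The shared region of Tap1 and Psmb9 held 1 TGACG and 1 CCAAT but not the pair at this spacing. Tapbp held CCAAT but no TGACG, Psmb8 held neither, and Psmb10 held none of the 7 patterns searched. The other patterns were AANNGAAA (the core bound by interferon regulatory factors, in 23.9% of promoters, found in H2-K1, H2-D1 and B2m), GAAA followed after 2 bases by GAAA (3.44%, in B2m, where it overlaps the former) and TTCNNNGAA (8.3%, in Psmb8). A missing match says only that these letters are not in this window. Across mice Tapbp, without the pair, followed H2-K1 and B2m (Pearson's r 0.94 with each) as closely as H2-D1 did (0.93 with each). The part of the pair in these levels was not tested.

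Reads of 50 bases that map to several places were not counted by the authors, which bears on genes with close copies. Of the 50-base stretches of H2-K1 transcripts 9.63% also occur in transcripts of other genes, mostly of H2-Q10, H2-D1 and H2-Q7, and for H2-D1 the share was 12.8%. B2m and Psmb10 had no such stretch. For Tapbp the share was 23.2%, mostly with Gm19412 (20.3%), for Psmb8 11.9% and for Tap2 11.6%. Psmb9 had 4.19%, Tap1 3.33% and Nlrc5 0.338%. Stretches were compared on both strands, and those of Psmb9 were shared with Tap1 alone, which overlaps it on the other strand. The levels of H2-K1, H2-D1, the H2-Q genes, Tapbp, Psmb8 and Tap2 are therefore uncertain to the extent that reads of shared stretches were lost. Psmb5, used below as a partner of Psmb8, shares 54.1% of its stretches with other genes, 46.8% with the single gene Gm3375, so that its count may understate its level.

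The level of the 10 genes spanned a wide range. On the scale of CPM per kilobase of exon, B2m stood highest at 2736 ± 699 (SD, n = 16), followed by H2-K1 at 696 ± 188 and H2-D1 at 506 ± 126. Below them came Psmb10 at 169.9 ± 31.4, Tapbp at 119 ± 28.0, Psmb8 at 68.6 ± 19.5, Tap1 at 31.8 ± 9.11, Psmb9 at 26.9 ± 7.43, Tap2 at 24.2 ± 5.38 and Nlrc5 at 5.19 ± 2.71. The order was nearly the same from mouse to mouse. Each gene stood above the next in 16 of 16 mice, except for Tap1 above Psmb9 in 15 and Psmb9 above Tap2 in 12. The neighbours Tap1, Psmb9 and Tap2 thus overlap within their spread, and their order is not settled. The 10 genes together took 0.467% to 0.828% of all counts, lowest in female Slfn3KO 1 and highest in female WT 3.

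The question of the study was what changes in the mucosa without Slfn3, and whether it changes alike in both sexes. Between the 8 Slfn3KO and the 8 WT mice none of the 10 genes passed the test. With edgeR's quasi-likelihood test, labelled sex as a covariate and Benjamini-Hochberg adjustment, 0 of the 10 genes, and 0.0% of the 14822 genes tested, passed an adjusted p of 0.05 with a 1.5-fold difference. At an unadjusted p under 0.05 the count was 0 of 10 against 11.9% of all genes tested. DESeq2 called 55 genes in the same comparison, none of them among the 10. Of the 10 estimates 9 were below 0 and 1 was above, and 7 and 3 with library totals alone, with a median log2 difference of -0.20 where the median of all genes was -0.00365. In bulk tissue such as this, fewer cells of a type and less RNA per cell cannot be told apart.

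The classical heavy chains and their light chain had estimates below 0 with intervals that span 0. H2-K1 ranged over 1024 to 2360.2 CPM (median 1607) in the Slfn3KO mice and 1337 to 2769 CPM (median 1889) in WT. The log2 difference was -0.27 (SE 0.183, 95% interval -0.66 to 0.11, edgeR adjusted p = 0.571), and the genotypes overlapped over most of their range. H2-D1 ranged over 757 to 1587 CPM (median 1224) in Slfn3KO and 905 to 1874 CPM (median 1499) in WT, a log2 difference of -0.29 (SE 0.175, interval -0.67 to 0.08, edgeR adjusted p = 0.529). B2m, the most abundant of the set, had 1447 to 3033 CPM (median 2199) and 1613 to 3553 CPM (median 2348), a difference of -0.21 (SE 0.180, interval -0.59 to 0.17, edgeR adjusted p = 0.657). No interval of these 3 genes reached below -0.67. No gene of the 10 separated the genotypes without overlap, 0 of 10 against 0.027% of genes.

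The transporter and its loading partner gave similar pictures. Tap1 ranged over 70.5 to 218 CPM (median 161) in Slfn3KO and 93.3 to 249 CPM (median 196) in WT, Tap2 over 54.2 to 113 CPM (median 85.5) and 61.9 to 126 CPM (median 102), and Tapbp over 248 to 536 CPM (median 357) and 324 to 609 CPM (median 389). Their log2 differences were -0.25 (SE 0.219), -0.20 (SE 0.159) and -0.14 (SE 0.162), with edgeR adjusted p between 0.639 and 0.734. For Tap1 and Tap2 the lowest mice were of both genotypes, male Slfn3KO 1 and then female WT 2, and for Tapbp the lowest was female Slfn3KO 1.

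The immunoproteasome subunits were nearest to 0. Psmb8 ranged over 73.3 to 247 CPM (median 199.6) in Slfn3KO and 94.3 to 268 CPM (median 197) in WT, Psmb9 over 37.6 to 125 CPM (median 107) and 49.2 to 137 CPM (median 105), and Psmb10 over 139 to 259 CPM (median 229) and 169 to 291 CPM (median 202). Log2 differences were -0.04 (SE 0.231, interval -0.54 to 0.45), -0.05 (SE 0.229, interval -0.53 to 0.44) and 0.04 (SE 0.140, interval -0.26 to 0.34). The sign of Psmb8 and Psmb9 turned positive with library totals alone in place of the scaling factors, and that of Psmb10 turned negative without the WT libraries 3 and 4. The estimate of Nlrc5 was the farthest from 0 and the least certain, -0.54 (SE 0.388, interval -1.36 to 0.29, edgeR adjusted p = 0.599), and it was -0.03 without the WT libraries 3 and 4.

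**Figure D1:**
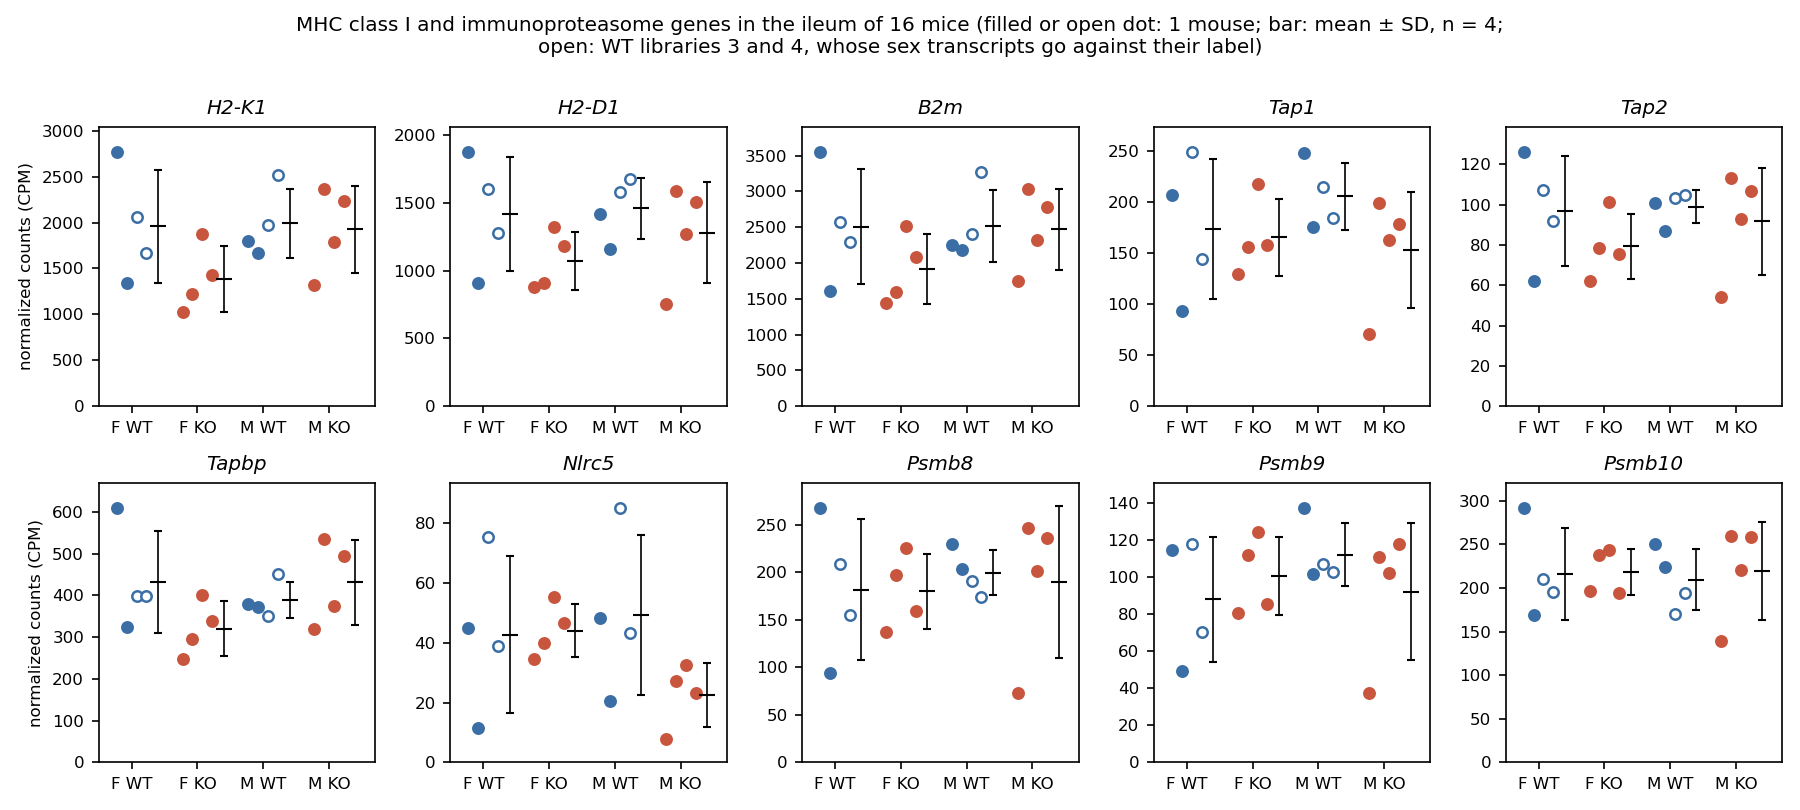
Normalized counts (CPM, y axis from 0) of the 10 genes in the libraries labelled female (F) and male (M) of each genotype; each dot is 1 mouse, open dots are the WT libraries 3 and 4, and the bar beside each group is its mean ± SD (n = 4). The genotypes overlap in every panel, and male Slfn3KO 1 and female WT 2 lie low in most panels.

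Within the libraries labelled female the heavy chains, B2m and Tapbp had the largest estimates. H2-K1 measured 1024, 1218, 1870.0 and 1429 CPM in female Slfn3KO 1 to 4 and 2769, 1337, 2061 and 1670.4 CPM in female WT 1 to 4. Its log2 difference was -0.50 (SE 0.276, edgeR adjusted p = 0.349). The groups overlapped, since female WT 2 lay below 2 of the 4 Slfn3KO mice. Tapbp measured 248, 296, 400.4 and 339 CPM in Slfn3KO and 609, 324, 398 and 398 CPM in WT, a difference of -0.43 (SE 0.229, edgeR adjusted p = 0.338). For H2-D1 and B2m the differences were -0.40 (SE 0.253) and -0.39 (SE 0.283). The other 6 genes lay between -0.29 for Tap2 and 0.19 for Psmb9.

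No gene of the 10 passed in this comparison, 0 of 10 against 0.0% of 14064 genes tested, nor at an unadjusted p under 0.05, 0 of 10 against 17.1%, of which 8.58% were higher and 8.56% lower. DESeq2 called 506 genes and none of the 10. In none of the 10 did the 4 Slfn3KO and 4 WT mice separate without overlap, against 7.77% of genes. One mouse decided this count at the unadjusted level: without female WT 2, H2-K1, H2-D1, Tap2 and Tapbp had an unadjusted p under 0.05, 4 of 10 lower against 8.58% of all genes lower, with edgeR adjusted p of at least 0.287. Without female Slfn3KO 3 the count was 1, H2-K1 at a log2 difference of -0.68 (edgeR adjusted p = 0.261), 1 of 10 lower against 9.43% of all genes lower. In the pooled comparison, leaving out female WT 2 gave H2-D1 and Nlrc5, 2 of 10 lower against 8.21%, with edgeR adjusted p of at least 0.343.

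In the libraries labelled male, Nlrc5 had the largest estimate of any of the 10. It measured 7.71, 27.2, 32.5 and 23.3 CPM in male Slfn3KO 1 to 4 and 48.5, 20.5, 85.1 and 43.2 CPM in male WT 1 to 4, a log2 difference of -1.13 (SE 0.507, edgeR adjusted p = 0.925). Male WT 2 lay below 3 of the 4 Slfn3KO mice, and male WT 3 lay far above all others. Without male and female WT 3 and 4 the estimate was -0.60 (SE 0.597, edgeR adjusted p = 0.850). DESeq2 and the fit of all 4 groups together put Nlrc5 at an unadjusted p under 0.05, 1 of 10 lower against 2.89% of genes lower and 5.02% in either direction by DESeq2 and 2.91% lower in the fit of all 4 groups, with adjusted p of 0.901 (DESeq2) and 0.895 (edgeR). Leaving out male WT 2 or male Slfn3KO 3 also did so, with -1.38 and -1.36 and edgeR adjusted p of 0.932 and 0.838, 1 of 10 lower each time against 2.47% and 2.03% of all genes lower. In the libraries labelled female Nlrc5 measured 34.7, 39.9, 55.4 and 46.5 CPM in Slfn3KO and 45.1, 11.5, 75.5 and 39.1 CPM in WT, where the highest and the lowest value were both WT.

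The remaining genes of the set had smaller estimates in the libraries labelled male. Tap1 had -0.43 (SE 0.287), Psmb9 -0.28 (SE 0.312), H2-D1 -0.19 (SE 0.233) and Tapbp 0.15 (SE 0.171) as log2 differences, and the other 5 lay between -0.11 and 0.07. None passed, 0 of 10 against 0.0% of 14124 genes, and at an unadjusted p under 0.05 the count was 0 of 10 against 3.84%, 1.86% higher and 1.98% lower. DESeq2 called 14 genes, none of the 10, and 0 of the 10 separated the groups without overlap against 2.42% of genes. Same-numbered libraries labelled male deviated together, so the fit was repeated with replicate number as a block, although no sample label names a pair. Then 936 in place of 542 genes had an unadjusted p under 0.05 (6.63%, with 3.24% lower), 0 of the 10 among them, and no gene was called.

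The labelled sexes were compared through the interaction of labelled sex and genotype, as the female difference minus the male difference. Sex transcripts and labels disagree in the WT libraries 3 and 4 of both labels. The term is therefore not a difference between the sexes as their transcripts give them. Its median over the 10 genes was -0.12, and -0.088 without those libraries. Tapbp came nearest to the threshold, with -0.58 (SE 0.297, interval -1.21 to 0.05, edgeR adjusted p = 0.461). The estimate for Nlrc5 was 1.17 (SE 0.726, edgeR adjusted p = 0.511), and for H2-K1 it was -0.45 (SE 0.357, edgeR adjusted p = 0.592). Called genes were 0 of 10 against 0.0% of 14822, and genes at an unadjusted p under 0.05 were 0 of 10 against 11.1%, 5.8% higher and 5.26% lower. Tapbp had an unadjusted p under 0.05 when female Slfn3KO 3, male Slfn3KO 1 or female WT 2 was left out, with estimates of -0.71 to -0.72 and edgeR adjusted p of at least 0.348. Each time it was 1 of 10 lower, against 7.77%, 4.72% and 4.98% of all genes lower. Nlrc5 had such a p when female WT 3 was left out, with 1.59 (edgeR adjusted p = 0.244), 1 of 10 higher against 10.8% of all genes higher. DESeq2 called 24 genes and the fit without the WT libraries 3 and 4 called 359, none of the 10 in either.

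**Figure D2:**
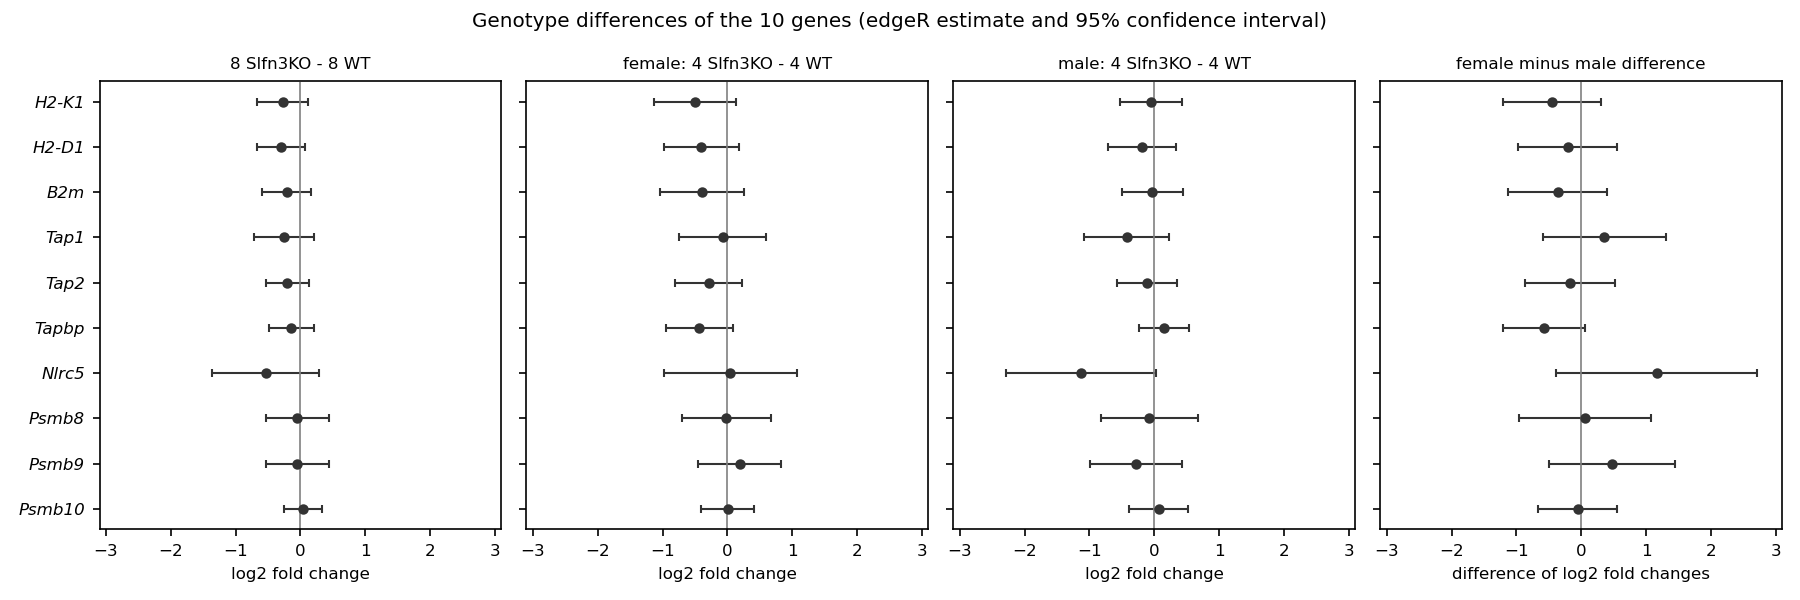
Log2 differences (x axis) of the 10 genes between Slfn3KO and WT in all mice, in the libraries labelled female and in those labelled male, and the female minus male difference; points are edgeR estimates and bars their 95% confidence intervals. Every interval spans 0, and those of Nlrc5 are the widest.

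Most of the 10 genes varied together across the 16 mice, Nlrc5 the least. From the lowest to the highest mouse the level differed by 2.10-fold for Psmb10 and 2.33-fold for Tap2, up to 3.65-fold for Psmb8 and Psmb9, and Nlrc5 ran from 7.71 to 85.1 CPM. Male Slfn3KO 1 was the lowest of the 16 mice in 7 of the 10 genes, and female Slfn3KO 1 in the other 3. The highest mouse was female WT 1 in 7 genes, and female WT 3, male WT 1 and male WT 3 in 1 gene each. The lowest mouse was thus a Slfn3KO mouse and the highest a WT mouse in each of the 10 genes, which is a description and was not tested. Female WT 2 was among the 2 lowest in 6 genes, and male Slfn3KO 2 was among the 3 highest in 6. Female WT 1 also had the highest summed level of the proximal small intestine markers and the lowest of the ileum markers, and the part of this in its levels of the 10 genes was not tested.

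Psmb8 shows the pattern mouse by mouse. It measured 137, 198, 226 and 159 CPM in female Slfn3KO 1 to 4, 73.3, 247, 201 and 236 CPM in male Slfn3KO 1 to 4, 268, 94.3, 209 and 156 CPM in female WT 1 to 4 and 230.0, 203, 191 and 174 CPM in male WT 1 to 4. Only male Slfn3KO 1 and female WT 2 lay under 100 CPM. Tap2, whose level followed the mean of the other 9 most closely, measured 62.1, 78.2, 101 and 75.6 CPM and 54.2, 113, 92.7 and 107 CPM in the female and male Slfn3KO mice, and 126, 61.9, 107 and 91.7 CPM and 101, 87.0, 103 and 104 CPM in WT. The lowest were again male Slfn3KO 1 and female WT 2, closely followed by female Slfn3KO 1.

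The likeness of the 10 genes was described by Pearson's r over the 16 mice, on log2 CPM with a prior count of 2. The points share the library and its scaling, genotype and labelled sex, so r is given without a test. Over the 45 pairs r ran from 0.17 for Tapbp with Nlrc5 to 0.98 for H2-K1 with B2m, with a median of 0.72. Closer groups within the set were picked after the values were seen. H2-K1, H2-D1, B2m and Tapbp had r of 0.82 to 0.98 with each other, and Tap1, Psmb8 and Psmb9, which are neighbours on chromosome 17, had 0.92 to 0.96. Tap2, which lies next to Psmb8, had 0.88 with Tap1, 0.90 with Psmb8 and 0.82 with Psmb9, but 0.96 with the more distant H2-D1. The 4.19% of the 50-base stretches of Psmb9 that occur in Tap1 lie on opposite strands, and reads were counted by strand.

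Against the mean of the other 9 genes Tap2 had r = 0.98 (Spearman's rho 0.98), the highest of 14813 genes ranked, and H2-D1 had 0.93 (rho 0.89), the third highest. Psmb8 had 0.91, Tap1 0.89, Psmb9 and B2m 0.84, H2-K1 0.83, Tapbp 0.75 and Psmb10 0.72. Nlrc5 was least alike at 0.60 (rho 0.37). Without the 2 mice farthest from the median, female WT 2 and male Slfn3KO 1, Tap2 had 0.97 and H2-D1 0.90, whereas Nlrc5 had 0.07 and Psmb10 0.45. The likeness of Nlrc5 to the set rests on those 2 mice. Within the 8 Slfn3KO and the 8 WT mice r was 0.99 and 0.99 for Tap2, 0.94 and 0.94 for H2-D1 and 0.90 and 0.62 for Psmb10. Without the WT libraries 3 and 4 Psmb10 had 0.94 and Nlrc5 0.62.

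**Figure D3:**
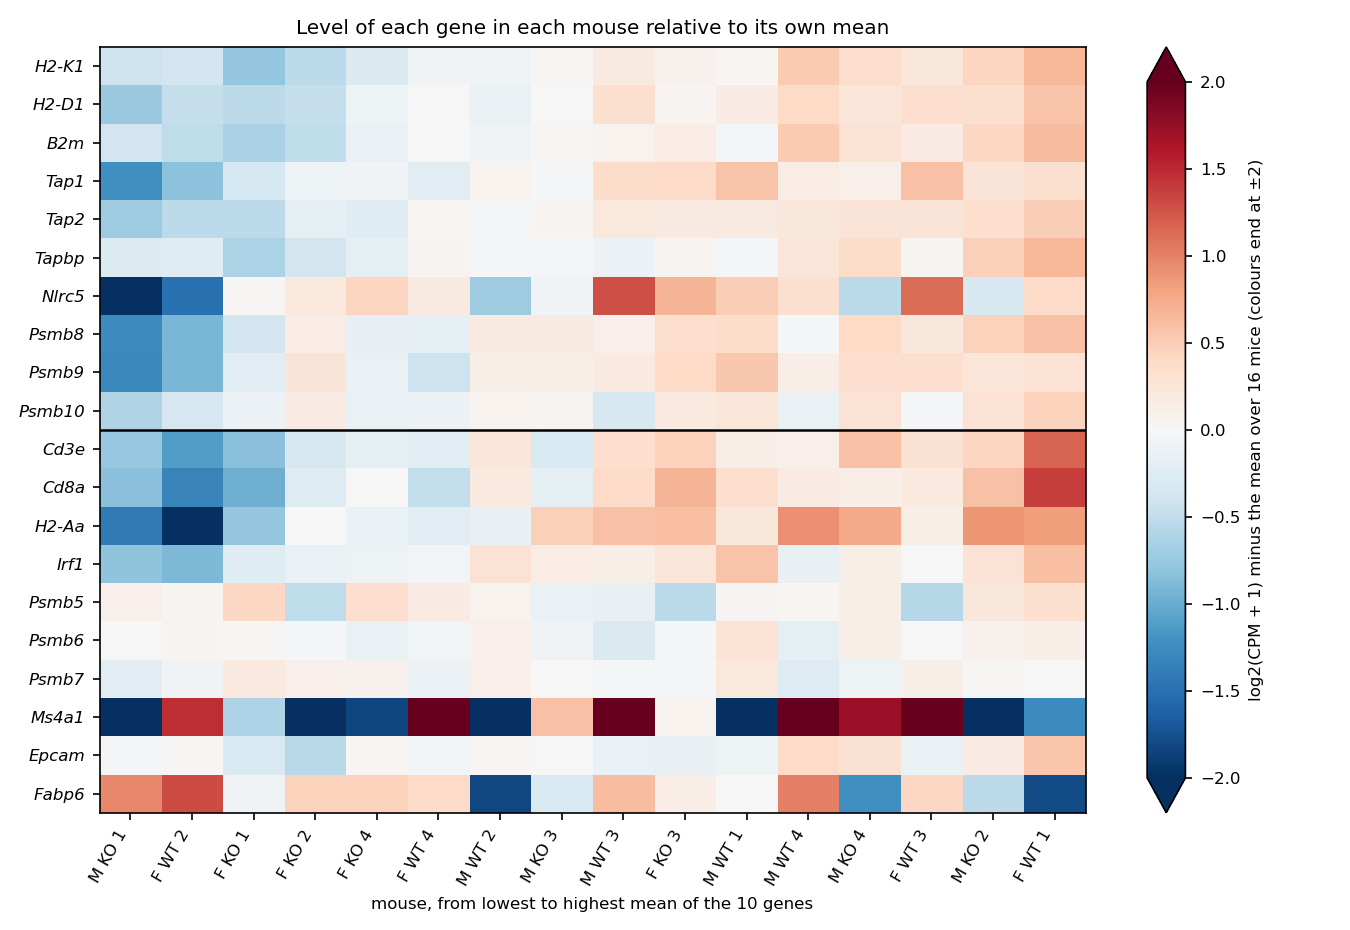
Level of each gene in each mouse as log2(CPM + 1) minus its mean over the 16 mice (colour, ending at ±2), with mice ordered from the lowest to the highest mean of the 10 genes, which stand above the line. T-cell genes (Cd3e, Cd8a), the class II gene H2-Aa and Irf1 follow the order of the 10 genes, and the constitutive subunits Psmb5, Psmb6 and Psmb7 and the B-cell gene Ms4a1 do not.

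Among all other genes those most like the mean of the 10 included T-cell genes, as the likeness of Cd3g (r = 0.93), Cd6 (0.92) and Cd3e (0.92) shows. Cd3g and Cd3e encode chains of the T-cell receptor complex and Cd6 a T-cell surface receptor. The other 7 of the 10 most alike were Itgad (0.94), an integrin α chain, A430093F15Rik (0.94), the non-classical class I gene H2-Q4 (0.93), Olfr56 (0.93), the ubiquitin-like Ubd (0.92), Gm5431 (0.92) and Trafd1 (0.92). Without the 2 farthest mice Cd3e had 0.92 and Trafd1 0.94.

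Lists of genes differed in their likeness to the 10 genes. The 8 markers of T and intraepithelial lymphocytes in the table had a median r of 0.87 with the mean of the 10 genes, from 0.60 for Cd4 to 0.93 for Cd3g, and Cd8a had 0.90 and Gzma, a granzyme of cytotoxic cells, 0.86. The 10 genes of class II presentation had a median of 0.86, with H2-Ab1 at 0.90 and H2-Oa at 0.15. Interferon-γ-induced GTPases had 0.64 and type I interferon-stimulated genes 0.44, and over all genes tested the median was -0.03. Without the 2 farthest mice the medians were 0.82 for the T-cell markers and 0.78 for class II. They were then 0.27 for the GTPases, from -0.32 for Tgtp1 to 0.63 for Igtp, and 0.50 for the type I genes, so that the order of these last lists turned. Leaving out the same mice, H2-Ab1 had 0.87, Cd8a 0.89, Cd4 0.27 and all genes tested a median of -0.05. Summed over the 8 T-cell markers, the level ran from 108 to 321 CPM in Slfn3KO and from 77.5 to 486 CPM in WT, with female WT 2 lowest, female WT 1 highest and no marker at 0 in any mouse. The part of T-cell numbers in the level of the 10 genes was not tested.

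Other parts of the pathway followed to different degrees. The proteasome activator subunits Psme1 and Psme2, which interferon-γ also induces, had r of 0.73 and 0.75, and the third, Psme3, had 0.16. These were 0.91, 0.94 and 0.17 without the WT libraries 3 and 4, and 0.62, 0.63 and -0.07 without the 2 farthest mice. Tapbpl, a relative of tapasin that edits peptides, had 0.84, or 0.59 without the 2 farthest mice, and the trimming peptidase Erap1 had 0.15. Among regulators the transcription factor Irf1 had 0.87, or 0.70 without the 2 farthest mice. Interferon-γ itself (Ifng), at 0 in female WT 2 and male Slfn3KO 1 and low elsewhere, had 0.70 (0.22 without those mice), and its receptor chain Ifngr1 had -0.52. The constitutive subunits had 0.12 for Psmb6, 0.12 for Psmb7 and -0.16 for Psmb5, and the 11 other core subunits a median of 0.21. B-cell markers had a median of 0.22, macrophage markers 0.09 and epithelial markers 0.48. Without the 2 farthest mice these medians were -0.18 for the core subunits, 0.10 for B-cell, -0.20 for macrophage and 0.67 for epithelial markers, and -0.13 for the 3 constitutive subunits. Fabp6 had -0.52, or -0.30 without the 2 farthest mice, at 15725 and 12460.3 CPM in female WT 2 and male Slfn3KO 1 and 1847 CPM in female WT 1. The other ileum marker, Slc10a2, moved the other way, from -0.29 to -0.52 without the 2 farthest mice. The median of both markers was -0.40, and -0.41 without those mice.

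**Figure D4:**
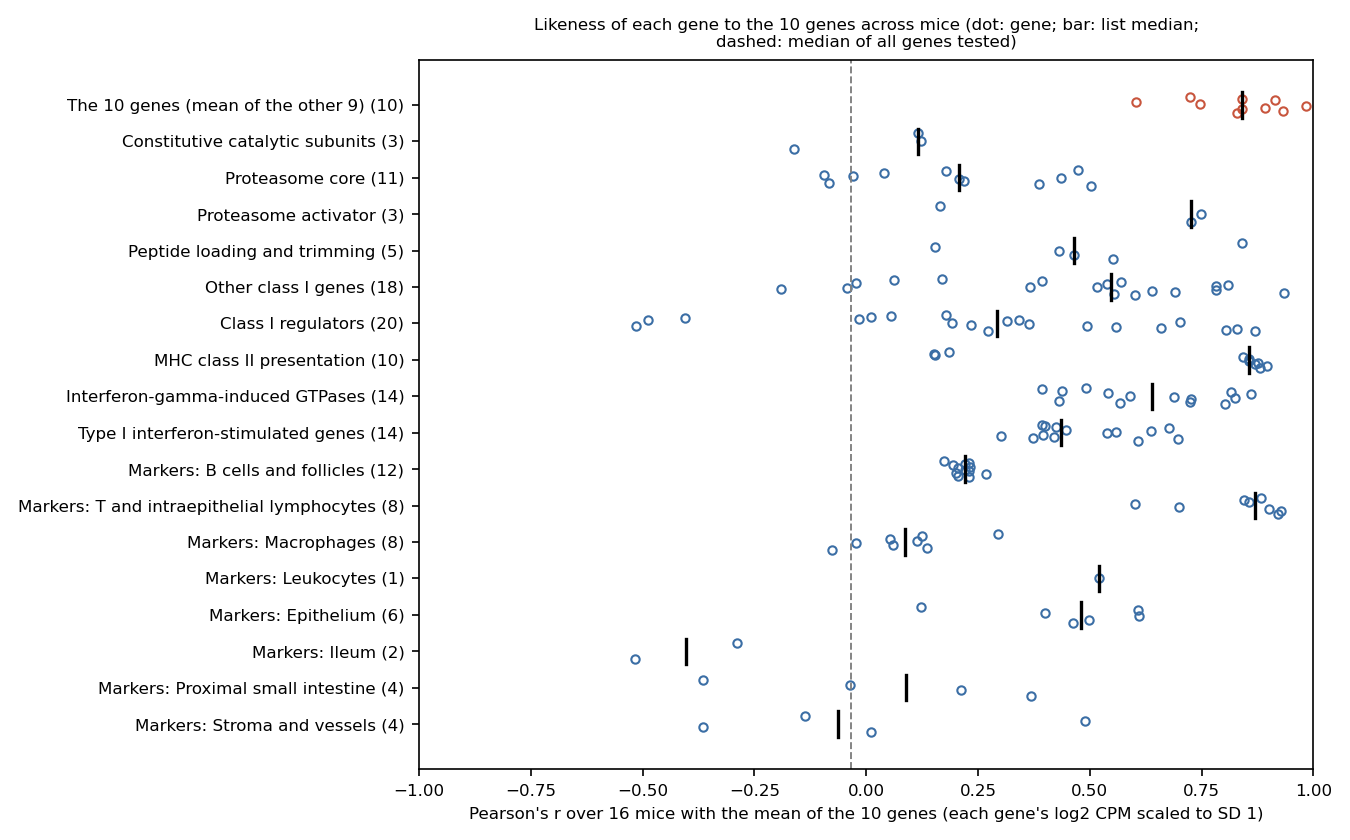
Pearson's r over 16 mice (x axis) between each gene and the mean of the 10 genes, by list with the number of genes in brackets; dots are genes, bars list medians, and the dashed line is the median of all genes tested. Markers of T and intraepithelial lymphocytes (median 0.87) and class II genes (0.86) lie to the right, constitutive catalytic subunits (0.12) and B-cell markers (0.22) near the middle.

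Among the other 9, Nlrc5 departed most from Tapbp, H2-K1, Psmb10 and B2m, with Pearson's r of 0.17 to 0.39. With the rest r was 0.64 to 0.83, highest with Tap1. The 3 highest values of Nlrc5 were 85.1 CPM in male WT 3, 75.5 CPM in female WT 3 and 55.4 CPM in female Slfn3KO 3. Markers of B cells and follicles were also high in the first 2 of these mice. Summed over the 12 markers, male WT 3 had 1018 CPM, and the range was 2.85 to 155 CPM in Slfn3KO and 5.54 to 1018 CPM in WT, with at most 1 marker at 0 in a Slfn3KO mouse and none at 0 in WT. Female WT 3 had 505 CPM and female Slfn3KO 3 had 60.9 CPM. In female WT 4 the sum was 657 CPM and Nlrc5 was 39.1 CPM. The 14 interferon-γ-induced GTPases summed to 87.5 to 535 CPM in Slfn3KO and 131 to 565 CPM in WT. The 3 highest sums were 565 CPM in female WT 3, 544 CPM in male WT 3 and 535 CPM in female Slfn3KO 3. The part of B cells or of interferon in the Nlrc5 difference was not tested.

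Ratios within a mouse, which do not depend on the scaling, set each inducible subunit against the constitutive one it replaces. Per kilobase, Psmb8 to Psmb5 ranged from 1.85 to 9.34 (median 5.80) in Slfn3KO and from 2.47 to 8.83 (median 5.50) in WT, where the reads shared by Psmb5 bear on the level of the ratio. Psmb9 to Psmb6 ranged from 0.185 to 0.629 (median 0.522) and from 0.234 to 0.644 (median 0.533). Psmb10 to Psmb7 ranged from 2.11 to 3.62 (median 2.90) and from 2.28 to 3.83 (median 2.73). In all 3 ratios male Slfn3KO 1 was the lowest mouse. No difference between genotypes passed the exact two-sided permutation test within labelled sex, with log2 differences of -0.08, -0.06 and 0.02 and p adjusted over 6 ratios of 0.876 for each.

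The other 3 ratios compared genes of one step. H2-K1 to B2m was the tightest, at 0.227 to 0.265 (median 0.250) in Slfn3KO and 0.240 to 0.273 (median 0.261) in WT, a log2 difference of -0.07 with an exact permutation p of 0.0457 and 0.274 after adjustment. H2-K1 to H2-D1 ranged from 1.15 to 1.72 and from 1.24 to 1.49, a log2 difference of 0.02 (exact permutation p = 0.740, adjusted 0.876). Tap1 to Tap2 ranged from 0.898 to 1.49 and from 1.04 to 1.69, with a difference of -0.05 (exact permutation p = 0.728, adjusted 0.876). None of the 6 passed after adjustment.

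**Figure D5:**
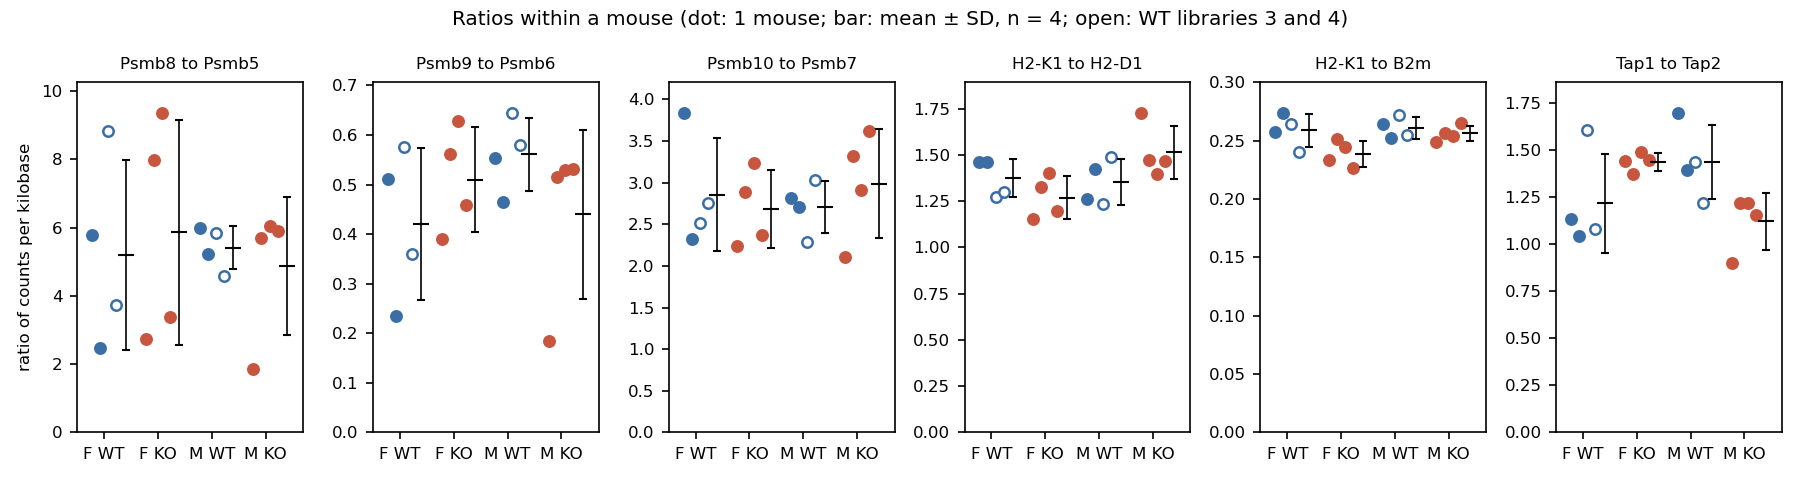
Ratios of counts per kilobase within each mouse (y axis from 0) for the 6 gene pairs, by labelled sex (F, M) and genotype; dots are mice, open dots the WT libraries 3 and 4, and bars the mean ± SD (n = 4). The ratio of H2-K1 to B2m varies least, from 0.227 to 0.273, and male Slfn3KO 1 is lowest in the 3 ratios of inducible to constitutive subunits.

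The neighbours of the 10 genes in the pathway were counted in the pooled comparison, where 4.84% of all genes were higher and 7.1% lower at an unadjusted p under 0.05 and none was called. The 18 other class I genes had 6 lower and 0 higher, with a median log2 difference of -0.52, from -1.26 (SE 0.403) for H2-T24 to 0.11 (SE 0.192) for Fcgrt, the neonatal Fc receptor. The other 5 lower genes were H2-Q5 (-0.97), Mr1 (-0.96), which presents vitamin B metabolites, H2-Q6 (-0.95), H2-T10 (-0.53) and H2-K2 (-0.52). Without the WT libraries 3 and 4 only 1 of the 18 was lower, against 3.1% of all genes, and the median was -0.12.

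Of the 20 class I regulators 5 were lower and 0 higher, with a median of -0.13. Stat2, a transcription factor of type I interferon signalling, had the largest difference at -0.48 (SE 0.141, edgeR adjusted p = 0.327), and Rfx5, a subunit of the RFX complex, had -0.35 (SE 0.133). The other 3 were Ifnar2 (-0.48), Jak1 (-0.23) and Ifnar1 (-0.15), of the interferon receptors and their kinase. Nfyc, a subunit of NF-Y, was at the other end with 0.11 (SE 0.0915). Irf1 had -0.14 (SE 0.194). Without the WT libraries 3 and 4 the count was 0 of 20.

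Proteasome genes outside the set lay close to 0. The constitutive subunits Psmb5, Psmb6 and Psmb7 lay between -0.02 (SE 0.0771) for Psmb6 and 0.02 (SE 0.167) for Psmb5, the 11 core subunits between -0.01 for Psmb4 and 0.10 for Psma5, and the 3 activator subunits between -0.03 for Psme3 and 0.04 for Psme1, with 0 of 17 at an unadjusted p under 0.05. Without the WT libraries 3 and 4, 1 of the 3 constitutive subunits was lower at such a p, and none of the other 14 genes was. The 5 genes of peptide loading and trimming had 0, from -0.19 (SE 0.107) for the chaperone Calr to 0.10 (SE 0.0910) for Erap1.

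Interferon and class II genes were listed for comparison. All 14 type I interferon-stimulated genes were lower at an unadjusted p under 0.05, with a median of -1.04, from -0.63 (SE 0.255) for Mx1 to -1.95 (SE 0.504) for Oas2, and none was called. Genes of this list were named by the study as changed in these same mice, so that the count is not independent evidence of a direction. Of the 14 interferon-γ-induced GTPases 1 was lower, Gbp9 at -0.86 (SE 0.392), with a median of -0.29. The 10 class II genes had 3 lower and a median of -0.02, with H2-Ob, which B cells express, at -2.76. B-cell markers had 11 of 12 lower and a median of -2.98, and T-cell markers 1 of 8 lower, Cd4, and a median of -0.34. Without the WT libraries 3 and 4 the lower genes were 3 of 14 interferon-stimulated genes, 0 of 14 GTPases, 0 of 10 class II genes and 0 of 12 B-cell markers, with medians of -0.54, 0.17, 0.20 and 0.12. The T-cell markers then had 0 of 8 and a median of -0.37.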

How the data were processed

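Ileum mucosa RNA of 16 mice was sequenced as single reads of 50 bases from stranded TruSeq libraries. The deposited values are raw counts per gene, which the authors made by trimming with cutadapt, aligning to mm10 with STAR and counting on the reverse strand with featureCounts 1.4.6. Per the file headers reads mapping to several places were not counted, and the methods of the study name HTSeq in place of featureCounts. The submitters' processing notes also list DESeq2 1.22.2. The table holds 46078 genes, of which 45143 were matched to a symbol, and exon lengths come from the same table.

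Groups were taken from the sample titles. Genes were filtered with filterByExpr and compared with the quasi-likelihood F test of edgeR 4.0.16 in R 4.3.3 (TMM scaling, robust), over all 16 mice with labelled sex as covariate, within each labelled sex, and as a sex by genotype interaction. A gene was called at a Benjamini-Hochberg adjusted p under 0.05 and a 1.5-fold difference, and an unadjusted p under 0.05 served as a descriptive count. Standard errors and 95% intervals were taken from the F statistic. For 6 ratios, genotype labels were permuted exactly within labelled sex (4900 labellings, two-sided) with p adjusted over the 6, using Python 3.11.15, numpy 2.4.6, scipy 1.17.1 and pandas 2.3.3. For the difference of a ratio between the labelled sexes, labelled sex was permuted within each genotype instead. The scripts were tested on simulated data.

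Alternatives were DESeq2 1.42.0, other scaling and filters, 1 fit of all 4 groups, no sex covariate, a replicate block, each mouse left out in turn and the WT libraries 3 and 4 left out. No pair of libraries within a group agreed within sampling noise, the lowest chi-square per degree of freedom being 24.2. Deviations of same-numbered mice correlated at 0.138 to 0.518 in all 4 pairs labelled male. Differently numbered mice were not correlated for reference, so a pairing by number is not shown. The replicate block was used as an alternative alone. No sample label names such a pair. The highest value was that of the libraries numbered 3, where sex transcripts and label of the WT library disagree. In the pairs labelled female the deviations correlated at -0.362 to 0.143, and a pairing is not shown there either.

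The genes named are the 10 genes, the largest and smallest differences of each list, and the 10 other genes most alike over mice. A few further genes of the lists were named after their values were seen. The 10 genes and the lists were chosen with earlier results of these data known. Promoters and patterns come from RefSeq on build GRCm38.p6.

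A few genes of the lists are not reported here by name.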

Additional observations from a re-analysis of the deposited data

Results flagged for a closer look

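In 64 groups of 4 mice, 4 values stood apart from the other 3 of their group by Dixon's criterion, where chance gives about 1 in 20. Psmb9 in male WT 1 was 137 CPM, against 102 to 107 CPM in the other male WT mice. In male Slfn3KO 1 the ratio of Psmb8 to Psmb5 was 1.85, against 5.68 to 6.03 in the other male Slfn3KO mice, and the ratio of Psmb9 to Psmb6 was 0.185, against 0.515 to 0.532. The ratio of Tap1 to Tap2 was 1.61 in female WT 3, against 1.04 to 1.13 in the other mice labelled female WT.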

How the results depend on the processing

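None of the 10 genes was called under any setting tried. Of 320 fold changes of the 10 genes under other settings 305 kept their sign and side of the threshold and 15 changed sign, and of 480 with a mouse left out 436 and 44 did. The number of all genes called, 0 in each comparison, was 55 pooled, 506 female, 14 male and 24 for the interaction with DESeq2, 1 pooled with the replicate block, and 359 for the interaction without the WT libraries 3 and 4, and stayed at 0 with any mouse left out. The replicate block changed no other call and brought the genes at an unadjusted p under 0.05 from 2410 to 1306 in the libraries labelled female. Without a filter these were 2435 of 26566 genes pooled. The causes were not tested.

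Library totals alone moved the median of all genes to 0.14 in the libraries labelled female and 0.13 for the interaction. They turned the pooled estimates of Psmb8 and Psmb9 to 0.037 and 0.028, the female ones of Tap1 and Psmb8 to 0.066 and 0.16, and the interaction of Psmb10 to 0.11. The female estimate of Psmb8 was 0.058 with the replicate block, and that of Psmb10 was -0.011 with RLE factors and -0.011 with DESeq2. Without the WT libraries 3 and 4, Psmb10 had -0.098 pooled, -0.088 female, -0.11 male and 0.031 for the interaction, Tap1 had 0.13 female, and H2-K1 and B2m had 0.15 and 0.16 male. The log2 differences of the ratios were then 0.047 for Psmb8 to Psmb5, 0.10 for Psmb9 to Psmb6, -0.041 for Psmb10 to Psmb7 and -0.018 for H2-K1 to H2-D1.

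With 1 mouse left out, pooled estimates ran from -0.15 to 0.074 for Psmb8, -0.16 to 0.084 for Psmb9 and -0.016 to 0.12 for Psmb10. Female estimates ran from -0.28 to 0.15 for Tap1, -0.27 to 0.46 for Nlrc5, -0.23 to 0.23 for Psmb8, -0.0085 to 0.36 for Psmb9 and -0.096 to 0.19 for Psmb10. Male estimates ran from -0.16 to 0.094 for H2-K1, -0.14 to 0.11 for B2m, -0.23 to 0.072 for Tap2, -0.23 to 0.19 for Psmb8 and -0.025 to 0.23 for Psmb10. Interaction estimates ran from -0.21 to 0.31 for Psmb8 and -0.23 to 0.12 for Psmb10. Ratios ran from -0.23 to 0.13 for Psmb8 to Psmb5, -0.19 to 0.13 for Psmb9 to Psmb6, -0.030 to 0.10 for Psmb10 to Psmb7, -0.0078 to 0.048 for H2-K1 to H2-D1, -0.088 to -0.056 for H2-K1 to B2m and -0.085 to 0.024 for Tap1 to Tap2.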

Other observations

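The ratio of Tap1 to Tap2 was looked at by sex after its values were seen. In the libraries labelled female it was 1.37 to 1.49 in Slfn3KO and 1.04 to 1.61 in WT, and in those labelled male 0.898 to 1.22 in Slfn3KO and 1.22 to 1.69 in WT. The female log2 difference minus the male one was 0.62. With labelled sex permuted within each genotype, the exact two-sided permutation p was 0.00857. After adjustment over 6 ratios it was 0.0514, which does not pass the threshold. This permutation assumes no difference between the labelled sexes in either genotype, so it is not a test of the interaction alone. The WT libraries 3 and 4, whose sex transcripts and labels disagree, are part of these groups.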
